A study of Mus musculus with 2 samples.

Results

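Among the cells of MC38 tumours, a set of monocyte-like cells was defined by transcripts of Ly6c2 with low C1q. A barcode belonged to the set with at least 1000 unique molecular identifiers (UMIs, counted RNA molecules), at most 20% of them mitochondrial, and at least 4 UMIs in sum of Ly6c2, Plac8, Chil3, Ccr2 and Vcan. It also needed at least 1 UMI of Csf1r, Fn1 or Ms4a6c and fewer than 20 UMIs of C1qa, C1qb and C1qc per 10000. A barcode with any UMI of Cd3d, Cd3e, Ncr1, Klrb1c, Flt3 or Siglech was left out, as was one with more than 10 of S100a8 and S100a9 or more than 2 of Hmga2 and Rhox5. The rule took 922 of 12353 control barcodes and 1201 of 16010 knockdown barcodes, 2123 of 28363 in all. These genes chose the cells, so their levels are given as a description.

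The study profiled tumours of the mouse colon carcinoma line MC38 by droplet 3′ single-cell RNA sequencing, with 1 library per group. The control is labelled Mbtps1 WT and the other library Mbtps1 KD, while the text of the series calls it a knockout. Mbtps1 encodes site-1 protease, a Golgi enzyme that activates membrane-bound transcription factors such as the SREBP proteins. The labels do not say which cells carry the change, nor the strain, age or number of mice, and no other treatment is named. With 1 library per group there is no measure of the spread between tumours, no test was possible, and all 95% intervals cover counting error only. The libraries held 177399315 and 174190399 UMIs in all. Before the mitochondrial limit, 51 barcodes of at least 1000 UMIs were present in both. The filtered barcodes outnumber the 6000 cells loaded and 3000 targeted per channel. Members had a median of 3988 UMIs in the control and 2558 in the knockdown library, so the control cells were the more deeply read. The median member held 16 and 11 UMIs of the 5 markers and 2.004% and 1.495% mitochondrial UMIs, and C1q was at 0 in 41.2% and 47.2% of members. Mbtps1 had 57 and 44 UMIs in the members that carried myeloid adaptor transcripts, 19.6 and 17.2 CPM, a ratio of 0.876 (95% interval 0.577 to 1.32), so no difference was detectable at this depth.

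The label was checked against genes outside the rule, and it held for part of the set. Tyrobp and Fcer1g encode the signalling adaptors of myeloid receptors and are carried by nearly all monocytes and macrophages. Members fell into groups with and without them: 726 control and 966 knockdown members had at least 10 UMIs of the pair per 10000, and 196 and 235 had fewer. Of the latter, 121 and 162 had none. Only 8 and 17 members lay at 5 to under 10 per 10000. Members poor in the pair were 21.3% and 19.6% of the cells and held 40.3% and 38.0% of the set's UMIs. Their median depth was 9182.5 and 6124 UMIs, against 3707 and 2386 in the Tyrobp/Fcer1g-high members.

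The Tyrobp/Fcer1g-low members carried the genes of fibroblasts. Levels are given as UMIs per 1000000 of the summed counts (CPM), control first and knockdown second. Col1a1, a chain of type I collagen, stood at 5542 and 4773 CPM in them and at 122 and 97.2 CPM in the Tyrobp/Fcer1g-high members. Col3a1, a chain of type III collagen, stood at 9571 and 8198 CPM and at 181 and 357 CPM. Lyz2, the lysozyme of myeloid cells, was at 77.5 and 153 CPM in the low and 9308 and 7650.0 CPM in the high members. The list of 6 fibroblast markers summed to 18812 and 16368 CPM in the low members and to 363 and 622 CPM in the high ones. In the low members Vcan, which encodes the matrix proteoglycan versican, was the only marker above 0 in 67 and 86 cells, against 0 and 2 of the high members. Plac8 was the only marker above 0 in 80 and 85 high and in 28 and 30 low members. It gave 57.15% and 45.88% of the marker UMIs of the low members. Ly6c2 was at 14.3 and 53.6 CPM there. The low members are therefore counted as taken by the rule but are not called monocytes. The results are given for the Tyrobp/Fcer1g-high members, a limit chosen after the values were seen, and the values of the whole set are given beside them where they differ.

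**Figure D1:**
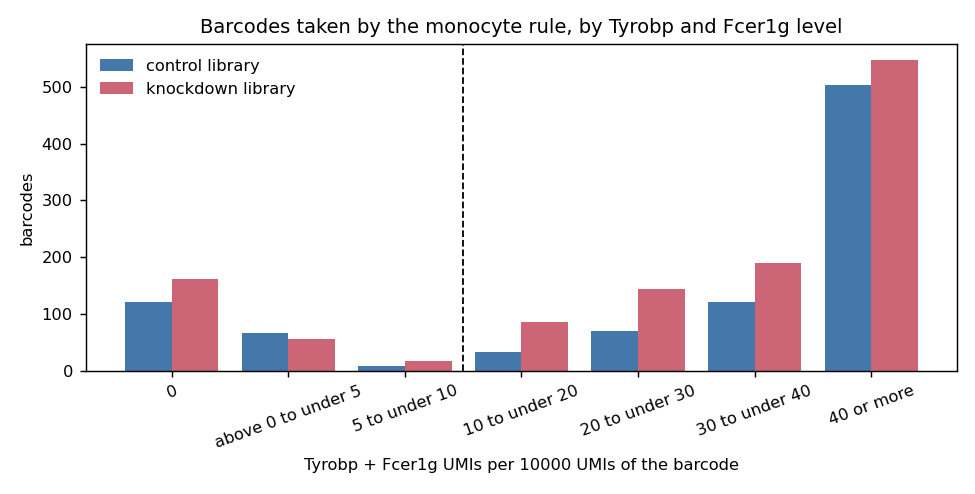
Number of members (y axis) by their summed Tyrobp and Fcer1g UMIs per 10000 (x axis, in bins), for the control and the knockdown library. Few members lie at 5 to under 10 per 10000, 8 and 17 cells, between those with little of the pair and the 503 and 548 members with at least 40.

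Cells lay on both sides of the limits of the rule. Barcodes with exactly 3 marker UMIs, just outside, numbered 67 and 135, and 55.2% and 54.1% of them were Tyrobp/Fcer1g-high. Those with exactly 4, just inside, numbered 68 and 128, with 57.4% and 55.5%. At the C1q limit, 20 and 34 members lay at 15 to under 20 per 10000 and 25 and 37 otherwise matching barcodes at 20 to under 25. H2-Ab1, a class II antigen-presenting chain, was at 4199.6 and 2288 CPM inside this limit and at 5105 and 4347 CPM outside it.

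Monocytes that carry the surface protein Ly6C leave the bone marrow by the chemokine receptor CCR2, enter inflamed tissue and tumours, and can turn into macrophages or take on features of dendritic cells there. As they mature they lose Ly6C and gain complement C1q, apolipoprotein E and scavenger receptors. Ly6C-low monocytes patrol the wall of vessels and carry genes such as Ace and Treml4.

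Promoters of 4 genes are shown, because the results below turn on a marker of the set, a chemokine and a pair of class II genes. They run from 250 bases before to 50 bases after the start site, 5′ to 3′ on the gene's strand, from RefSeq on GRCm38.p6. Ly6c2, whose table has 2 promoters of which 1 is shown, lies at chr15:75111922-75112221 on the minus strand, and the capitals mark GAGGAAG, a core bound by the myeloid factor PU.1. Cxcl2 lies at chr5:90903649-90903948 on the plus strand, with GGNNTTTCC, most of a site of the NF-κB family, in capitals. H2-Aa lies at chr17:34287774-34288073 on the minus strand and H2-Eb1 at chr17:34305617-34305916 on the plus strand. Their capitals mark CCAAT on either strand, the letters at the core of the Y box of class II promoters. Not every match is a Y box.
Ly6c2: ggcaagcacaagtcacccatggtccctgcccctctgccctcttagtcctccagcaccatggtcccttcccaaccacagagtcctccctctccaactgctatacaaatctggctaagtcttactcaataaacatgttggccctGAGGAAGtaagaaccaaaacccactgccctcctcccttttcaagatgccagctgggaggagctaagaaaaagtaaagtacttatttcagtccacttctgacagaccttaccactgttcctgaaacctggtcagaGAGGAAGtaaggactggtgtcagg
Cxcl2: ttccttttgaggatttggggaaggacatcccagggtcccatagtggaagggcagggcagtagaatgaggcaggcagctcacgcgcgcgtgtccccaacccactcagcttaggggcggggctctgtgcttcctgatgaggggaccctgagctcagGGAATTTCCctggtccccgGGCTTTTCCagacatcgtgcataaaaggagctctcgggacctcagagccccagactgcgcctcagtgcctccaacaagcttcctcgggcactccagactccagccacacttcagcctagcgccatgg
H2-Aa: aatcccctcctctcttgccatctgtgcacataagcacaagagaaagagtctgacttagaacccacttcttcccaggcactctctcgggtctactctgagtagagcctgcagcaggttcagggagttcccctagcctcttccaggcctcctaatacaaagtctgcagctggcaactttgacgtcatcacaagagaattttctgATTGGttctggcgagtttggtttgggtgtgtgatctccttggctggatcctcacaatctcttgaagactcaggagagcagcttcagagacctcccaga
H2-Eb1: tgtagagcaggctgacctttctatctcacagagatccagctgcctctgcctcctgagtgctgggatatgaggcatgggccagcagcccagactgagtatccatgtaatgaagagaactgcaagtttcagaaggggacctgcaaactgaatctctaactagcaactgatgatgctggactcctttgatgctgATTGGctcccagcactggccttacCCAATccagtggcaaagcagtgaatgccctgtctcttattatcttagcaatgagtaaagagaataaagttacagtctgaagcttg

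The Ly6c2 promoter held GAGGAAG 2 times, the Cxcl2 promoter held the NF-κB motif 2 times, and CCAAT or its complement was found 1 time for H2-Aa and 2 times for H2-Eb1. Both strands were searched, and no match overlapped a match of another of these motifs. Among all 32851 promoters of the table, 13.6% held GAGGAAG, 5.82% held GGNNTTTCC and 37.4% held CCAAT. Of the 5 markers of the rule, Ly6c2 alone had GAGGAAG in this window. A match is a description of letters and not a bound site.

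All 5 markers of the rule contributed to the Tyrobp/Fcer1g-high members, but unequally. Plac8, a cysteine-rich protein of myeloid and lymphoid cells, was found in 96.7% and 95.5% of them and gave 66.1% and 58.4% of the marker UMIs. Ly6c2, the Ly6C antigen itself, was found in 67.4% and 66.8%, and Ccr2, the receptor for CCL2, in 64.7% and 52.9%. Chil3, a chitinase-like protein of early monocytes, was found in 38.4% and 43.8%, and Vcan in 15.3% and 20.8%. All 5 together were seen in 41 and 49 cells. These shares follow the depth of the cells as well as their RNA. Ly6c2 has a near-identical neighbour, Ly6c1, and how reads were divided between them is not given, so its level is uncertain.

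The levels of the markers set the Tyrobp/Fcer1g-high members beside macrophages, defined with the same limits but at least 20 C1q UMIs per 10000. Ly6c2 was at 986 and 1136 CPM in the high members, 337 and 524 CPM in macrophages with at least 4 marker UMIs and 11.7 and 19.5 CPM in macrophages with fewer. T cells, which also make Ly6C, had 484 and 639 CPM. Chil3 followed the same order over the myeloid cells, at 413 and 722 CPM, 50.1 and 105 CPM and 2.69 and 5.296 CPM. C1qa, a chain of complement C1q, had the opposite order, at 97.3 and 137 CPM, 4384 and 3488 CPM and 6202 and 5749 CPM. These 3 genes belong to the rule that separated the classes, so their order is set by the choice of cells, of which 840 and 531 were macrophages with at least 4 marker UMIs. Lyz2 differed less, with 6143 and 6735 CPM in macrophages with at least 4 marker UMIs. In empty droplets, barcodes of at most 100 UMIs that hold free RNA, macrophage markers summed to 10732 and 6567 CPM, above the 4370 and 4148 CPM of the high members, so macrophage transcripts made by monocytes and those caught as free RNA cannot be told apart here. The 10 monocyte genes of a list outside the rule were all above 50 CPM in the high members and summed to 2753 and 2903 CPM, where empty droplets had 381 and 275 CPM. The same list summed to 1528 and 1499 CPM in macrophages with at least 4 marker UMIs and to 935 and 792 CPM in those with fewer.

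**Figure D2:**
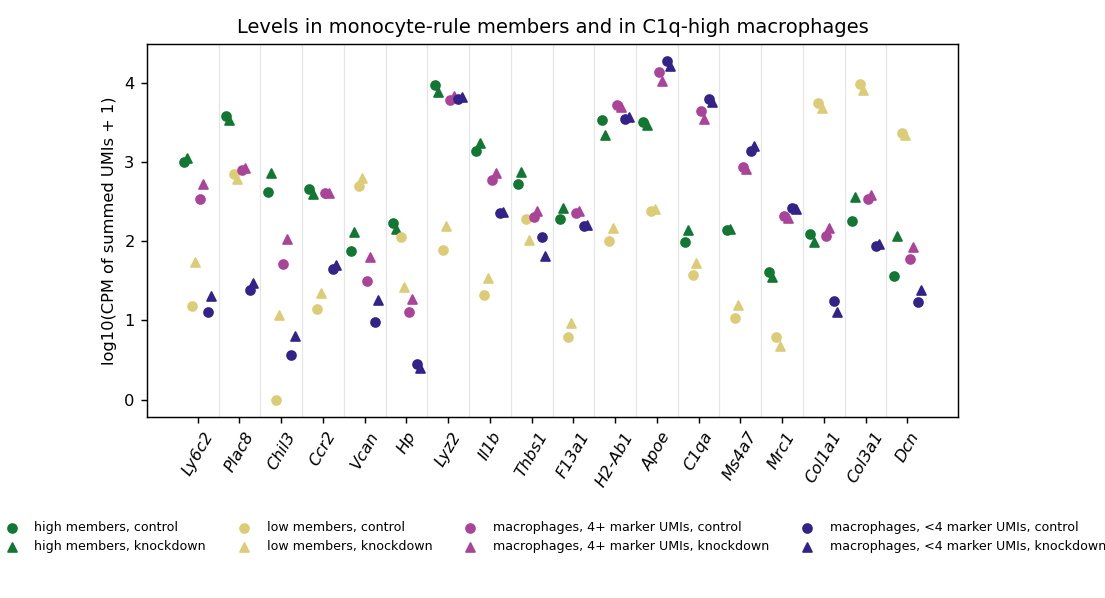
Levels of rule genes and other myeloid and stromal genes (log10 of CPM + 1, y axis) in the members and in macrophages, for the control (circles) and the knockdown library (triangles), with high and low for the Tyrobp/Fcer1g-high and -low members. Ly6c2 stands at 986 and 1136 CPM in the Tyrobp/Fcer1g-high members and Col3a1 at 9571 and 8198 CPM in the low ones.

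Against all macrophages of the same library, 406 of 3060 genes compared (13.3%) were at least 1.5-fold higher in the Tyrobp/Fcer1g-high members of both libraries, and 246 (8.04%) were at least 1.5-fold lower. Only genes with a mean of at least 50 CPM were compared, here and in the other contrasts. C1q and the markers divide these classes, so genes that vary with them were bound to differ, and the values describe the classes. For the whole set with its fibroblast-like cells, 444 of 3253 genes (13.6%) were higher and 359 (11.0%) lower, and collagen and matrix genes such as Postn and Mmp3 led the higher ones.

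The 3 genes that ranked highest over macrophages were Hp, Ifitm6 and Slpi. Hp, the haemoglobin-binding protein haptoglobin, was at 168 against 3.79 CPM in the control library, a ratio of 44.4 (95% interval 35.9 to 55.3), and 142 against 3.92 CPM in the knockdown library, a ratio of 36.2 (27.8 to 47.7). Ifitm6, an interferon-induced membrane protein, was at 207 against 5.44 CPM in the control library, a ratio of 38.02 (95% interval 31.8 to 45.7), and 158 against 6.501 CPM in the knockdown library, a ratio of 24.4 (19.7 to 30.3). Slpi, a secreted inhibitor of neutrophil elastase, was at 243 against 11.98 and 262 against 15.1 CPM. In both libraries, each of these genes was more than 10-fold higher in the monocytes. Ratios for Plcb1, a phospholipase, were 16.6 and 11.3, and those for Adgre5, the adhesion receptor CD97, were 12.9 and 12.5. Gsr, glutathione reductase, had 10.9 and 10.02, Mcemp1 had 8.73 and 8.97, Cytip, a regulator of adhesion, had 6.38 and 5.82, and F10, coagulation factor X, had 6.14 and 8.34. Ace, the angiotensin-converting enzyme of Ly6C-low monocytes, was at 51.9 against 1.61 and 61.7 against 1.64 CPM.

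Fcrls ranked lowest against macrophages. Fcrls, an Fc receptor-like scavenger protein, was at 14.1 against 214 CPM in the control library, a ratio of 0.06598 (95% interval 0.0473 to 0.0896), and 11.3 against 177 CPM in the knockdown library, a ratio of 0.0638 (0.0427 to 0.0918). Ms4a7, a membrane protein of macrophages, was at 138 against 1278 and 142 against 1464 CPM. Mrc1, the mannose receptor, was at 40.2 against 253 and 34.3 against 244 CPM, and Cd72 at 66.7 against 566 and 45.3 against 494 CPM. The monocyte level was below the macrophage level in both libraries for all 4. Apoe, which carries lipids out of cells, had ratios of 0.178 and 0.188, and Ccl8, a monocyte-attracting chemokine, was at 39.9 against 1165 and 195 against 2048 CPM.

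By list, 19 of 25 classical monocyte genes outside the rule were higher than in macrophages and 0 were lower, while 0 of 23 macrophage maturation genes were higher and 20 were lower. Lysosome genes were lower for 15 of 24 and higher for 0. Of the 17 immediate early genes 12 were higher, of the 17 inflammatory genes compared 11 were higher, of 31 interferon-stimulated genes 11 were higher, and of 21 myeloid transcription factors 11 were higher and 1 was lower. Of 15 MHC class I genes and 8 MHC class II genes, 0 differed by 1.5-fold in both libraries. This does not make the levels alike in each library, since H2-Ab1 lay further below macrophages in the knockdown than in the control library.

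The Tyrobp/Fcer1g-high members differed among themselves. Each cell was thinned to 1000 UMIs at random, so that the shares were read at equal depth. Membership was set before thinning by a fixed count of marker UMIs, so depth still bore on which cells were members. Cells with at least 2 thinned UMIs of a marking gene were set against those with none. Cells with Hp were 3.31% (2.13 to 4.88) and 3.83% (2.71 to 5.24) of the high members. Cells with class II transcripts (H2-Ab1, H2-Aa and H2-Eb1 in sum) were 50.3% (46.6 to 53.97) and 40.6% (37.5 to 43.8), those with Il1b were 27.7% (24.5 to 31.1) and 29.5% (26.6 to 32.5), and those with Cxcl9, an interferon-induced chemokine, were 17.2% (14.5 to 20.2) and 24.6% (21.9 to 27.5). Cells with Arg1, the arginase of suppressive myeloid cells, were 13.4% (10.97 to 16.1) and 12.01% (10.02 to 14.2), and cells with non-classical genes (Ace, Treml4, Adgre4, Ear2 and Cd300e in sum) were 4.41% (3.03 to 6.17) and 4.55% (3.33 to 6.07). The marking genes chose these cells and the classes overlap, so what follows describes them with no test.

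Cells with Hp carried genes of early monocytes and little class II. Values are given as cells with against cells without the gene, in the control and then in the knockdown library. Chil3 was at 1586 against 328 and 2168 against 601 CPM in the cells with against those without Hp. H2-Eb1 was at 122 against 2918 and 153 against 1593 CPM, and Arg1 at 109.8 against 819.5 and 47.1 against 920.2 CPM. Of the cells with Hp, 2 of 24 and 4 of 37 also had at least 2 class II UMIs, where 50.3% and 40.6% of all high members did.

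Cells with class II transcripts stood at the other end. Ciita, the master regulator of class II genes, was at 121 against 16.3 and 114 against 12.3 CPM in them, and H2-DMb1, which helps to load peptides, at 501 against 55.5 and 360.2 against 49.3 CPM. Chil3 was at 148 against 751 and 272 against 1120.2 CPM and Hp at 45.04 against 343 and 48.2 against 223 CPM. Thus both early monocyte genes were lower where class II was high, in both libraries.

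Cells with Il1b carried other inflammatory genes. Cxcl2, a neutrophil-attracting chemokine, was at 2633 against 248 and 4444 against 701 CPM, Ptgs2, the inducible cyclooxygenase, at 767 against 104 and 1153 against 175 CPM, and Tnf at 179 against 20.05 and 289.6 against 52.7 CPM. Il1rn, the receptor antagonist of interleukin 1, was at 636 against 190.5 and 1179.9 against 378 CPM. All 4 were higher in cells with Il1b in both libraries.

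Cells with Arg1 carried genes of tissue remodelling. Mmp12, a macrophage elastase, was at 438 against 28.01 and 961 against 51.3 CPM, Spp1, the matrix protein osteopontin, at 1535 against 236 and 2733 against 262 CPM, and Nos2, the inducible nitric oxide synthase, at 311 against 56.03 and 445 against 86.5 CPM. Hilpda, a hypoxia-induced lipid droplet protein, was at 406 against 104 and 714 against 122 CPM. Of the cells with Arg1, 62.9% and 54.3% also had class II transcripts, where 50.3% and 40.6% of all high members did.

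Cells with Cxcl9 and cells with non-classical genes shared 0 and 3 members, of 32 and 44 with non-classical genes. Of all high members, 17.2% and 24.6% were cells with Cxcl9. In cells with Cxcl9, Ccl5 was at 2780.0 against 625 and 2439.7 against 625 CPM and Gbp2, an interferon-induced GTPase, at 1446 against 479.5 and 1609 against 592 CPM. In cells with non-classical genes, Ceacam1, an adhesion molecule, was at 235 against 14.5 and 209 against 17.7 CPM, Spn, the surface sialoprotein CD43, at 207 against 17.6 and 105 against 15.03 CPM, and Eno3, a muscle-type enolase, at 162 against 9.78 and 114 against 9.72 CPM. Cxcl9 was at 63.1 against 1141 and 219 against 1799 CPM in the latter. Ly6c2 was at 198 against 1052 and 428 against 1203 CPM, and Nr4a1, a nuclear receptor that Ly6C-low monocytes need, at 965 against 216 and 361 against 213 CPM.

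**Figure D3:**
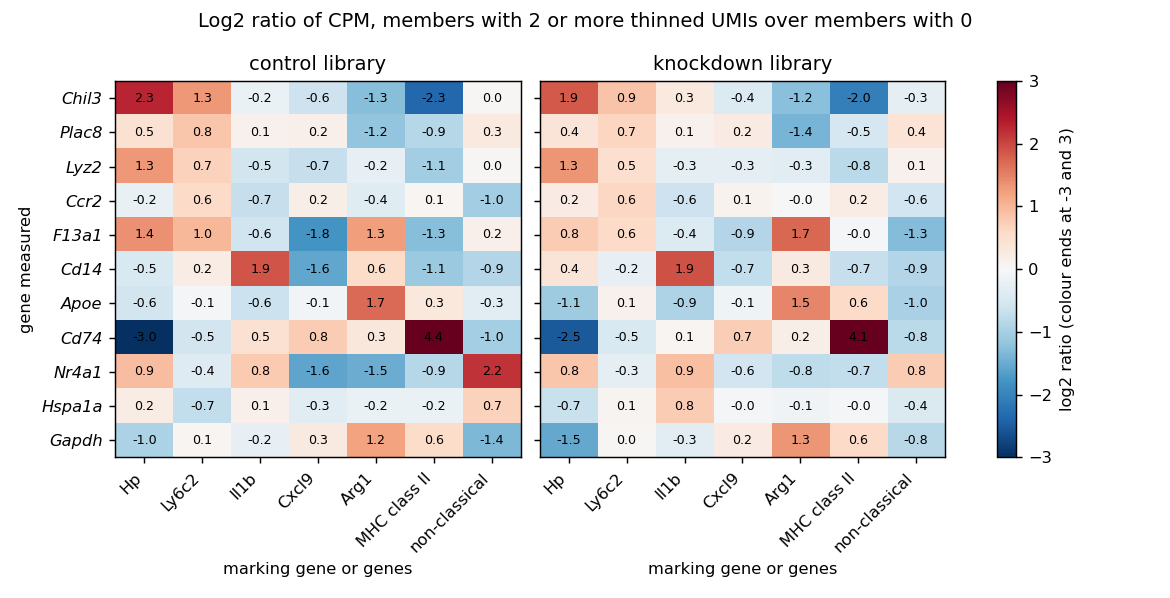
Levels of selected genes in Tyrobp/Fcer1g-high members with at least 2 thinned UMIs of a marking gene against members with none, as log2 ratios (colour and printed values), with 1 panel per library, marking genes on the x axis and measured genes on the y axis. Chil3 is higher in cells with Hp and lower in cells with class II transcripts in both panels, and Cd74, the class II invariant chain, is the reverse.

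The share of all filtered barcodes that belonged to the set was 7.46% (95% interval 7.01 to 7.94) in the control and 7.502% (7.10 to 7.92) in the knockdown library, a ratio of 1.01. The Tyrobp/Fcer1g-high members were 5.88% (5.47 to 6.31) and 6.03% (5.67 to 6.41). Of the barcodes of the set and the macrophages together, members were 18.2% (17.2 to 19.3) and 25.2% (23.99 to 26.5), beside 4133 and 3562 macrophages, and Tyrobp/Fcer1g-high members alone were 14.4% (13.4 to 15.4) and 20.3% (19.1 to 21.5). The share of barcodes did not differ beyond counting error as the files stand. It was lower in the knockdown library when barcodes under 2000 UMIs were left out. With the rest thinned to 2000 UMIs the members were 5.93% and 5.29%, a ratio of 0.892 (0.8003 to 0.994). With a minimum of 2000 UMIs and no thinning the ratio was 0.852 (0.774 to 0.937). Both leave out the bin of 1000 to under 2000 UMIs, where members were 4.63% and 11.4% of barcodes, 59 and 333 cells. The part of this cut in the 2 ratios was not tested. With at least 6 marker UMIs the ratio was 0.910 (0.829 to 0.9997). Macrophages were deeper than the members, with medians of 6399 and 4437.5 UMIs.

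Within bins of depth the Tyrobp/Fcer1g-high share went in opposite directions. Among barcodes of 1000 to under 2000 UMIs it was 4.24% and 10.6%. At 2000 to under 4000 UMIs it was 21.1% and 16.6%, at 4000 to under 8000 UMIs 8.09% and 2.38%, and from 8000 UMIs on 0.432% and 0.156%. Monocytes of the knockdown library thus sat in shallower bins. Of set and macrophages together, the high members were 19.6% and 46.98% at 1000 to under 2000 UMIs, 39.5% and 32.7% at 2000 to under 4000, 10.8% and 3.97% at 4000 to under 8000, and 1.88% and 2.48% from 8000 on. The higher knockdown share over all depths was therefore reversed in the middle bins, which held 646 of the 726 control and 645 of the 966 knockdown members.

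**Figure D4:**
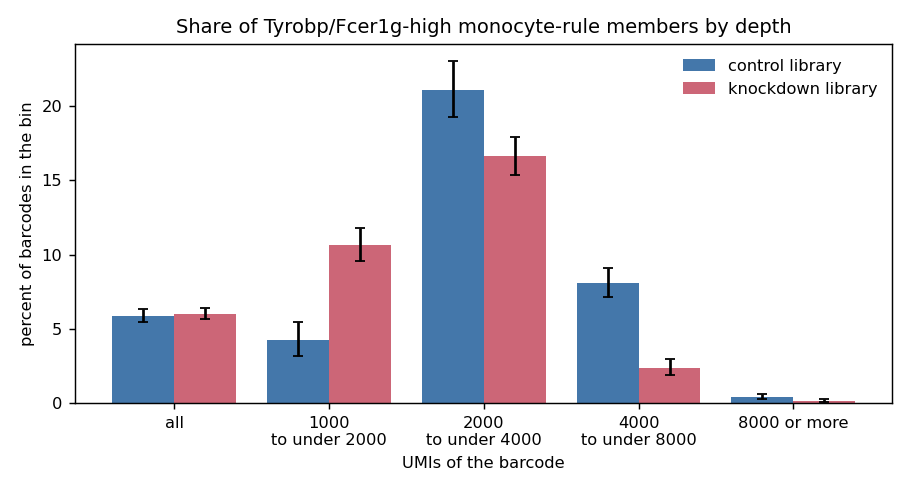
Share of filtered barcodes that are Tyrobp/Fcer1g-high members (percent, y axis) by the UMIs of the barcode (x axis, in bins), with 95% Clopper-Pearson intervals for counting error. The knockdown share is higher in the shallowest bin, 10.6% against 4.24%, and lower in the other bins.

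Between the libraries, inflammatory genes were higher and class II antigen-presentation genes lower in the Tyrobp/Fcer1g-high members of the knockdown library. Of 3044 genes compared, 78 (2.56%) were at least 1.5-fold higher and 48 (1.58%) at least 1.5-fold lower in the knockdown library, with a median log2 ratio of -0.02 over all genes compared. In the whole set 54 of 3381 genes (1.60%) were higher and 80 (2.37%) lower, with a median of -0.04. In summed counts, fewer cells with a transcript and less of it per cell cannot be told apart. In a narrower depth range of 2000 to under 4000 UMIs, which held 385 and 567 high members with medians of 3199 and 2629 UMIs, 137 genes were higher.

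Of the 18 inflammatory genes compared, 10 were at least 1.5-fold higher in the knockdown library and 0 lower, with a median log2 ratio of 0.66 that ranged from 0.57 to 0.79 over the alternative settings. Cxcl2, a chemokine set beside this list, stood at 937 CPM in the control and 1889.7 CPM in the knockdown library, a ratio of 2.02 (95% interval 1.92 to 2.11). In macrophages it stood at 349.9 and 504 CPM. Tnfaip2, induced by tumour necrosis factor, stood at 264 CPM in the control and 538 CPM in the knockdown library, a ratio of 2.04 (95% interval 1.86 to 2.23). Tnf, the cytokine itself, stood at 66.03 CPM in the control and 131 CPM in the knockdown library, a ratio of 1.99 (95% interval 1.66 to 2.38). In macrophages it was at 70.5 and 82.1 CPM. For these 3 genes the knockdown level was about 2-fold the control level.

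The other inflammatory genes had smaller ratios. Il1rn stood at 337 and 615 CPM, ratio 1.82 (95% interval 1.68 to 1.98), and Acod1, which makes the metabolite itaconate, at 152 and 274 CPM, ratio 1.801 (95% interval 1.597 to 2.03). Tnfaip3, the NF-κB inhibitor A20, stood at 105 and 184 CPM, ratio 1.76 (95% interval 1.52 to 2.03), and Nlrp3, the inflammasome sensor, at 100.1 and 172 CPM, ratio 1.72 (95% interval 1.48 to 2.01). Clec4e, the receptor Mincle, stood at 226 and 357 CPM, ratio 1.58 (95% interval 1.43 to 1.75). Il1a had 1.63, Ptgs2 had 1.62 and Nfkbiz, an NF-κB cofactor, had 1.58 as ratios. Il1b, the main secreted cytokine of the list, stayed under the limit at 1386 and 1718 CPM, ratio 1.24 (95% interval 1.19 to 1.29).

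The ratios were as large or larger in the narrower depth range. Among members of 2000 to under 4000 UMIs the ratio was 2.58 for Cxcl2, 2.19 for Tnf, 2.07 for Il1rn and 2.88 for Ptgs2. After thinning to 1000 UMIs, Cxcl2 was found in 15.98% (13.4 to 18.8) and 23.6% (20.96 to 26.4) of the high members, and in 22.5% and 28.7% before thinning. T cells, which should lack it, had Cxcl2 in 0.369% and 2.66% at median depths of 2939 and 2204.5 UMIs before thinning. Il1b was found in 42.01% (38.4 to 45.7) and 43.3% (40.1 to 46.5) of the high members and 0.738% and 1.18% of T cells, with intervals that overlap between the libraries. Neutrophil markers, 10 genes, summed to 133 and 128 CPM in the high members, with 1 gene above 50 CPM and Camp at 0 in both libraries. S100a8 and S100a9 are among them and are capped by the rule, so their part of this sum was limited in advance. Of the 9 inflammatory genes that were higher and had a promoter in the table, 5 held GGNNTTTCC, namely Acod1, Il1rn, Nlrp3, Tnfaip2 and Tnfaip3, beside 5.82% of all promoters. A form with 1 more G in front, tallied first, was held by 2 of the 9, Il1rn and Tnfaip3, beside 1.63% of all promoters, so the count rests on the letters searched. CCAAT was held by 5 of the 9, beside 37.4% of all promoters, and GAGGAAG by 3, beside 13.6%. A gene counted if any of its promoters matched, while the percentages are of single promoters, so the units differ.

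Class II genes were lower in the monocytes of the knockdown library. Of 8 compared, 4 were at least 1.5-fold lower and 0 higher, with a median log2 ratio of -0.59 that ranged from -0.65 to -0.35 over the alternative settings. H2-Ab1 stood at 3412 CPM in the control and 2163 CPM in the knockdown library, a ratio of 0.634 (95% interval 0.613 to 0.655). In macrophages it stood at 3828 and 3856 CPM. H2-Eb1 stood at 2637 CPM in the control and 1458 CPM in the knockdown library, a ratio of 0.553 (95% interval 0.532 to 0.575), and H2-Aa at 2829 and 1829 CPM, ratio 0.647 (95% interval 0.624 to 0.6703). H2-DMb1 stood at 303 and 183 CPM, ratio 0.603 (95% interval 0.538 to 0.675). Cd74, the invariant chain, stood at 6433 and 4389.7 CPM, ratio 0.682 (95% interval 0.667 to 0.699), just short of the limit.

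The class II difference was smaller in the narrower depth range, and for 3 of the 4 genes it no longer passed 1.5-fold. Among members of 2000 to under 4000 UMIs the ratio was 0.807 for H2-Ab1, 0.783 for H2-Aa, 0.719 for H2-Eb1 and 0.602 for H2-DMb1. After thinning, H2-Ab1 was found in 52.3% (48.6 to 56.03) and 45.4% (42.3 to 48.6) of the high members, against 66.3% and 56.3% before, and in 5.54% and 8.43% of T cells. Markers of conventional dendritic cells, which are rich in class II, summed to 106 and 86.2 CPM over 10 genes, with 0 of them above 50 CPM and Flt3 at 0 by the rule. Among the 534 and 788 members with no UMI of those markers, of Klrd1 or of Il1r2, the H2-Ab1 ratio was 0.683 and the H2-Eb1 ratio 0.626. Free RNA moved the same way, with H2-Ab1 at 1049.6 and 734 CPM in empty droplets. With free RNA subtracted at 10% of the UMIs the ratios were 0.632 for H2-Ab1 and 0.551 for H2-Eb1, close to those without the subtraction. All 3 class II genes that were lower and had a promoter in the table held CCAAT, beside 37.4% of all promoters. GGNNTTTCC was held by 1 of them, H2-DMb1, and GAGGAAG by 0. Here too a gene counted if any of its promoters matched, and the percentage is of single promoters.

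**Figure D5:**
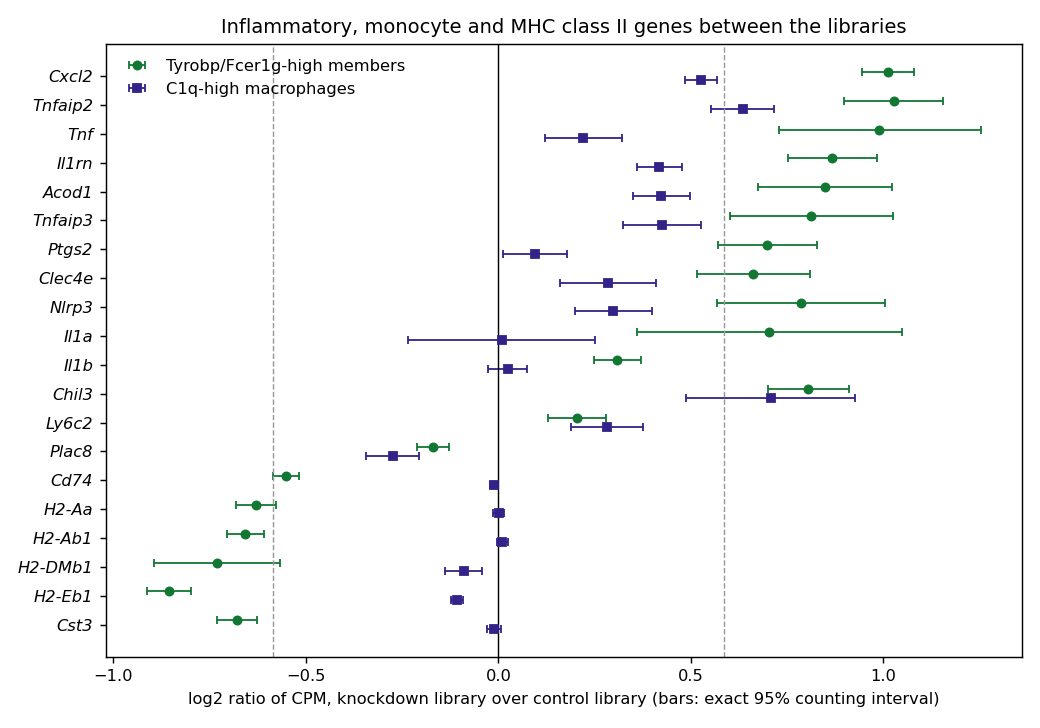
Knockdown over control ratios of single genes in the Tyrobp/Fcer1g-high members, and in macrophages, as log2 (x axis; circles monocytes, squares macrophages), with 95% intervals for counting error and dashed lines at a 1.5-fold difference. Cxcl2, Tnfaip2 and Tnf lie near a log2 ratio of 1, and the class II genes lie below 0 in monocytes and close to 0 in macrophages.

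Of 14 chemokines 4 were higher and 1 was lower, with a median log2 ratio of 0.41. Besides Cxcl2, these were Ccl2, Ccl7 and Ccl8, which draw monocytes. Ccl2 stood at 369.7 and 556 CPM, ratio 1.503 (95% interval 1.39 to 1.63). Ccl8 stood at 39.9 and 195 CPM, ratio 4.89 (95% interval 3.99 to 6.04). It was at 1165 and 2048 CPM in macrophages and at 404 and 421 CPM in empty droplets, above either monocyte level. In the narrower depth range its ratio was 1.76. Pf4, platelet factor 4, was the lower one at 122 and 76.5 CPM, ratio 0.628 (95% interval 0.525 to 0.7502), and it had a ratio of 1.47 in that range. Cxcl9 stood at 1114 and 1646 CPM, ratio 1.48 (95% interval 1.41 to 1.55), just short of the limit, and after thinning it was found in 26.2% (23.01 to 29.5) and 35.7% (32.7 to 38.8) of the high members and 4.43% and 9.17% of T cells.

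Of the rule's own markers, Chil3 and Vcan passed 1.5-fold. Vcan stood at 74.98 and 128 CPM, ratio 1.71 (95% interval 1.44 to 2.04), under its 194 and 235 CPM in empty droplets. Chil3 stood at 413 CPM in the control and 722 CPM in the knockdown library, a ratio of 1.75 (95% interval 1.62 to 1.88). In the narrower depth range the ratio was 1.24. After thinning, it was found in 24.9% (21.8 to 28.2) and 32.4% (29.5 to 35.5) of the high members and in 0% of T cells of both libraries. Ly6c2 had a ratio of 1.15, Plac8 of 0.889 and Ccr2 of 0.868. Of 26 classical monocyte genes outside the rule 0 passed in either direction, with a median of -0.11, and of 9 non-classical genes 0 passed. Hp stood at 168 and 142 CPM, ratio 0.845 (95% interval 0.735 to 0.969).

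A further group was lower in the knockdown library. Il1r2, a decoy receptor for interleukin 1, stood at 128 and 49.6 CPM, ratio 0.386 (95% interval 0.313 to 0.474), and Retnla, a resistin-like protein of alternative activation, at 202 and 95.6 CPM, ratio 0.474 (95% interval 0.407 to 0.552). Neither kept its side in the narrower depth range, with ratios of 1.07 and 2.16. Btg2, an antiproliferative early gene, stood at 366 and 199.8 CPM, ratio 0.546 (95% interval 0.49 to 0.607). Cst3, the protease inhibitor cystatin C, stood at 2921 and 1824 CPM, ratio 0.624 (95% interval 0.602 to 0.647), with 0.829 in members with no dendritic marker, Klrd1 or Il1r2. Ifit3, an interferon-induced antiviral protein, stood at 114 and 58.9 CPM, ratio 0.518 (95% interval 0.424 to 0.629), and Ltb4r1, the leukotriene B4 receptor, at 164 and 103 CPM, ratio 0.628 (95% interval 0.538 to 0.731). Ifit3, Ltb4r1, Tnfaip8l2 and H2-DMb1 were the 4 of 15 named lower genes that passed 1.5-fold under every alternative setting that gave a ratio. Of 22 named higher genes 17 did, among them Ccl8, which had no ratio with free RNA subtracted. The 17 also include Vcan, Cd63, Lgals1 and Timp2, which stood higher in empty droplets than in these monocytes.

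Mmp12 and Mmp13 were higher in the knockdown library. Mmp12 stood at 104 and 213 CPM, ratio 2.06 (95% interval 1.78 to 2.37), and Mmp13, an interstitial collagenase, at 25.1 and 101 CPM, ratio 4.04 (95% interval 3.11 to 5.31). In members with no dendritic marker, Klrd1 or Il1r2 the ratios were 1.43 and 1.395, short of the limit. C3, complement component 3, stood at 216 and 389 CPM, ratio 1.803 (95% interval 1.63 to 1.996). Its ratio was 1.43 in the narrower depth range and 1.42 in members with no dendritic marker, Klrd1 or Il1r2, both short of the limit. Spp1 stood at 436 and 669 CPM, ratio 1.54 (95% interval 1.43 to 1.65), with 1.07 in the narrower depth range. Gzmc, a granzyme of lymphocytes, was at 45.4 and 112 CPM, ratio 2.47 (95% interval 2.001 to 3.06). Its level in empty droplets was 156 and 108 CPM, and without its top cell in each library the ratio was 9.32. Marcksl1, a substrate of protein kinase C, stood at 57.1 and 132 CPM, ratio 2.304 (95% interval 1.91 to 2.79). Fibroblast markers summed higher in the knockdown library too, 363 and 622 CPM, with 2 and 3 of the 6 above 50 CPM and 0 of them at 0. Postn, the matrix protein periostin, which ranked first among the lower genes, went the other way at 82.2 and 24.6 CPM, ratio 0.299 (95% interval 0.223 to 0.396), with 0.941 in the narrower depth range. Their part in the matrix gene values was not tested.

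Pathways tied to the protease itself gave little to compare. Of the site-1 protease pathway 3 of 16 genes reached 50 CPM, and 0 passed 1.5-fold: Srebf2 stood at 63.97 and 62.1 CPM, Atf6 at 105 and 89.8 CPM and Gnptab at 55.4 and 48.8 CPM. Of 12 ER chaperones 0 passed, with a median of -0.02.

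Cell cycle genes were mostly too low to compare. Of 26 in the list 3 reached 50 CPM, and 0 of them passed 1.5-fold, with a median log2 ratio of 0.45. With no CPM filter, among genes of at least 20 UMIs, the list's median was 1.07. Top2a, a DNA topoisomerase of dividing cells, lay below the filter at 16.2 and 60.9 CPM, ratio 3.77 (95% interval 2.702 to 5.34), and after thinning it was found in 1.65% (0.857 to 2.87) and 4.87% (3.596 to 6.42) of the high members and 8.12% and 10.1% of T cells. It stood at 162 and 251 CPM in empty droplets, above both monocyte levels.

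Most other lists had few genes past 1.5-fold. Among interferon-stimulated genes 2 of 31 were lower, Ifit2 and Ifit3, with a median of -0.0019. Of 15 MHC class I genes, 18 trafficking receptors and integrins, 12 Fc and pattern receptors, 22 myeloid transcription factors and 21 glycolysis and hypoxia genes, 0 passed in either direction. Of 16 suppressive and wound genes Lgals1 was higher and Retnla lower, of 17 immediate early genes Egr1 was higher and Btg2 lower, and of 11 heat shock genes Bag3 was lower. Of 20 macrophage maturation genes Spp1, Cd63 and Mmp12 were higher and Pf4 lower. Of 22 lysosome genes Cd63 was higher, of 12 coagulation and matrix genes Vcan and Timp2 were higher, and of 10 oxidative burst genes Ltb4r1 was lower. Cd63, Lgals1 and Timp2 stood higher in the empty droplets than in these monocytes.

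The whole set gave the same inflammatory direction and added stromal genes. With the fibroblast-like members included, 9 of 17 inflammatory genes were higher and 1 lower, Saa3, and 2 of 7 class II genes were lower. Cxcl2 stood at 572 and 1201 CPM, ratio 2.1 (95% interval 2.005 to 2.201), and Il1rn at 204 and 394 CPM, ratio 1.93 (95% interval 1.78 to 2.09). The 4 genes that ranked first among the lower ones were Tagln, Fabp4, Acta2 and Rgs5. Fabp4, a fatty acid-binding protein, stood at 163 and 31.7 CPM, ratio 0.194 (95% interval 0.1602 to 0.234). Tagln and Acta2 encode proteins of smooth muscle and Rgs5 a marker of pericytes. Tagln stood at 89.4 and 15.98 CPM, ratio 0.179 (95% interval 0.136 to 0.232), Acta2 at 242 and 67.3 CPM, ratio 0.278 (95% interval 0.243 to 0.317) and Rgs5 at 242 and 87.2 CPM, ratio 0.3596 (95% interval 0.319 to 0.405). In the Tyrobp/Fcer1g-high members Acta2 was at 30.3 and 4.68 CPM and Rgs5 at 69.1 and 1.17 CPM. The cell cycle genes Top2a, Hmgb2 and Stmn1 also passed 1.5-fold in the whole set, with Top2a at 32.2 and 89.8 CPM, ratio 2.79 (95% interval 2.305 to 3.38).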

How the data were processed

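The deposited matrices hold UMI counts per gene and barcode, unnormalized and unfiltered, made with Cell Ranger 4, per the file headers. The build and annotation behind the counts: not given in the sources used here. From them, barcodes with at least 1000 UMIs and at most 20% mitochondrial UMIs were kept, and the members were taken by the rule. The members and gene lists were chosen with earlier results of these data known. Counts were summed per library and population, scaled to CPM, and compared as ratios with exact 95% binomial intervals for genes of at least 50 mean CPM. A ratio of at least 1.5 either way is called different. Shares have Clopper-Pearson intervals. Intervals cover counting error only, and the 1 library per group gives no replicates. Cells were thinned to 1000 UMIs for shares of cells. Genes were named by rank of the interval end nearest 1, as the 12 highest and 12 lowest between libraries and 15 against macrophages, and by level and ratio within each list. Scrublet, run in scanpy 1.11.5, called 4.34% and 5.09% of barcodes doublets, 8 and 23 of them members, which were kept and left out in an alternative. Python 3.11.15, NumPy 2.4.6, SciPy 1.17.1 and pandas 2.3.3 were used. The ratio code was checked on simulated data. Promoters come from a RefSeq table on GRCm38.p6. Some results are not reported here.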

Additional observations from a re-analysis of the deposited data

How the results depend on the processing

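No paired analysis was possible because each group has 1 library. The share of members in the control and knockdown libraries was 8.01% and 8.35% with a marker minimum of 3, 6.68% and 6.08% (ratio 0.910) with 6, 6.97% and 6.85% with a C1q limit of 10 per 10000, and 8.22% and 8.28% with 40. It was 5.93% and 5.29% (ratio 0.892) after thinning to 2000 UMIs, and 6.63% in the knockdown library (ratio 0.852) with a minimum of 2000 UMIs. Both leave out the barcodes under 2000 UMIs, among which the knockdown share was the higher. Added after seeing the data, Tyrobp/Fcer1g-high members were 5.88% and 6.03%, with 48 genes lower. For the whole set, 50 genes were lower with cells at equal weight, 156 were higher and 205 lower than in macrophages at 2000 to under 4000 UMIs, and 96 were higher in members with no dendritic marker, Klrd1 or Il1r2. With no CPM filter the counts were 886 higher and 1167 lower between libraries and 3779 higher and 1462 lower than in macrophages. In the Tyrobp/Fcer1g-high members they were 1092, 682, 1819 and 1956 without that filter, and 137 were higher at 2000 to under 4000 UMIs.

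Some ratios changed sides of 1, and the cause was not tested. In the whole set at 2000 to under 4000 UMIs they were 1.29 for Acta2, 1.71 for Adam12, 1.29 for Cxcl14, 2.03 for Igfbp7, 1.14 for Il1r2, 1.73 for Olfml3, 1.90 for Pcsk5, 1.15 for Retnla, 24.4 for Rgs5, 2.28 for Saa3 and 4.95 for Serpine2. With no dendritic marker, Klrd1 or Il1r2 they were 0.966 for Crabp1, 0.867 for Mmp13 and 1.03 for Saa3. In Tyrobp/Fcer1g-high members only, Adam12 had 1.36, Kif26b 2.92, Olfml3 1.40, Pcsk5 2.27 and Saa3 10.9. Within the Tyrobp/Fcer1g-high members, Pf4 had 1.04 with a marker minimum of 6, and Il1r2 1.07, Pf4 1.47 and Retnla 2.16 at 2000 to under 4000 UMIs. The unequal depth of the libraries limits every share, and counting intervals do not include the spread between tumours.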

Other observations

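Markers of mast cells and basophils, 6 genes, summed to 17.5 CPM in the Tyrobp/Fcer1g-high members of the control library and 82.3 CPM in those of the knockdown library. Mcpt4, a mast cell protease, gave 2 and 151 of their UMIs, and Mcpt8, a basophil protease, gave 18 and 0. Gzma, a granzyme of killer cells, had 7 and 72 UMIs, and Prf1, the pore-forming protein perforin, had 5 and 27. Mcpt4, Mcpt8, Gzma and Prf1 were chosen after their values were seen. The 8 markers of natural killer cells, which include Gzma and Prf1, summed to 62.3 and 88.6 CPM. The highest of the 8 was at 52.3 CPM in the control and 37.9 CPM in the knockdown library. The marker that was highest in the control library was therefore lower in the knockdown library. Empty droplets held 28.1 and 39.8 CPM of the mast cell and basophil markers, and the part of free RNA or of doublets in these UMIs was not tested.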
